A study of Danio rerio with 9 samples.

Results

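The zebrafish Hox cofactor genes pbx2, pbx4, meis1b, meis2b, meis3 and pknox1.1 were followed in hindbrain segments with and without the Hox protein Hoxb1a. The genes were chosen by name as members of the Pbx, Meis and Pknox families, with earlier results of these data known. They are not all of these families: 7 further measured genes are described below. The array annotation gave each of the 6 genes 1 probe, which is 6 of the 16227 probes tested and 6 of 5355 named genes. All embryos were zebrafish of an islet1-GFP transgenic strain, a line in which a GFP reporter marks cranial motor neurons, collected at 19 to 20 hours post fertilization. Normal r4 was rhombomere 4 of untreated embryos, Hoxb1a-deficient r4 was rhombomere 4 of embryos injected with a Hoxb1a morpholino, and normal r2 was rhombomere 2 of untreated embryos, with 3 arrays for each. A sample was a thick slice of hindbrain around the segment, pooled from 8 to 10 embryos, so each array averages over embryos and over all cell types in the slice. No array of embryos with a control injection was used here. The arrays came from 3 experiments: experiment 1 had normal and Hoxb1a-deficient r4, experiment 2 had all tissues, and experiment 3 had all tissues with a pair of r2 samples called 3a and 3b.

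Hox proteins bind short and similar DNA sites, and many gain their specificity by pairing with cofactors. Pbx proteins contact Hox proteins directly through a short tryptophan-containing Hox motif and bind DNA beside them. Meis and Pknox (Prep) proteins bind Pbx, bring it into the nucleus and can join the same complex on DNA. All belong to the TALE class of homeodomain proteins, which carry an extended loop in the homeodomain. In the vertebrate hindbrain such complexes maintain Hoxb1 expression in r4, and zebrafish embryos without functional pbx2 and pbx4 lose the identity of r2 to r6.

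Values are spot intensities relative to the median of their array, so 1 is a probe of middling brightness, and probes below it were not separated from background here. The hoxb1a probe, which checks the tissue, read 0.567 to 0.774 in r2, below its range in both normal r4 (1.88 to 3.02) and Hoxb1a-deficient r4 (1.51 to 3.17). The transcript checks the r2 label and not the knockdown, since a morpholino can block translation and leave the RNA. Of 10 markers of neural progenitors and young neurons 9 exceeded the median on at least 1 array. Markers of blood (5 of 5 measured), endothelium (3 of 4) and muscle (5 of 8) stayed below the median on all 9 arrays. The remaining endothelial marker was below it on 8 arrays. The remaining muscle markers, each read by its brightest probe, lay above the median on all 9 arrays, so the slices cannot be taken as free of muscle. Both arrays of experiment 1 had a higher upper quartile (6.15 and 6.86) than the other 7 (3.64 to 4.75), so that brighter probes tended to read higher in experiment 1. Replicates are samples with separate titles, but r2 samples 3a and 3b share experiment 3, so r2 stands on experiments 2 and 3 only. Without a block the p-values measure the spread between arrays of a group, which includes differences between experiments. The p-values with and without a block count 3a and 3b as separate replicates, except in the setting that averaged them.

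Of the Pbx genes, pbx2 encodes a partner that acts together with Pbx4 in the zebrafish hindbrain. On the normal r4 arrays of experiments 1 to 3 the probe stood at 4.66, 3.82 and 4.77, and on the Hoxb1a-deficient arrays at 3.08, 3.61 and 3.84. The r2 array of experiment 2 gave 4.03, sample 3a 4.51 and sample 3b 5.27. The Hoxb1a-deficient arrays lay lowest, except that normal r4 of experiment 2 fell just under the highest of them, while r2 and normal r4 overlapped widely. The other Pbx gene, pbx4 (lazarus), encodes the main early Pbx protein of zebrafish. It gave 2.99, 1.60 and 1.40 on the normal r4 arrays in the same order, 2.45, 1.62 and 1.09 on the Hoxb1a-deficient arrays, and 1.70 (experiment 2), 0.900 (3a) and 1.31 (3b) on the r2 arrays. Both arrays of experiment 1 stood above all others, the groups overlapped, and r2 sample 3a fell below the array median.

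Of the 3 Meis genes among the cofactors, meis3, whose product cooperates with Pbx4 and group 1 Hox proteins to promote hindbrain fates in zebrafish, varied most between experiments. Normal r4 gave 31.0, 10.4 and 11.7 in experiments 1 to 3, Hoxb1a-deficient r4 gave 26.9, 10.6 and 7.02, and r2 gave 9.59, 11.9 and 12.0 (experiment 2, 3a and 3b). Outside experiment 1 the values of all tissues lay between 7.02 and 12.0. For meis2b, whose product also binds Pbx, normal r4 gave 9.17, 4.03 and 3.88, Hoxb1a-deficient r4 gave 4.18, 6.25 and 4.41, and r2 gave 6.28, 5.97 and 3.38. Its highest value was normal r4 of experiment 1, while the other 8 arrays mixed the groups. The meis1b probe read 0.566 to 0.845 over the 9 arrays and was below the median on each, so its level was not separated from background and its differences carry little information.

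The remaining gene, pknox1.1 (prep1.1), encodes a Pbx partner that is needed for hindbrain segmentation in zebrafish. Normal r4 gave 21.9, 19.6 and 15.4 in experiments 1 to 3, and Hoxb1a-deficient r4 gave 21.8, 20.0 and 18.5. The r2 array of experiment 2 gave 24.5, sample 3a gave 28.3 and sample 3b gave 27.3. All 3 r2 arrays lay above all 6 r4 arrays, and the r4 groups overlapped.

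**Figure D1:**
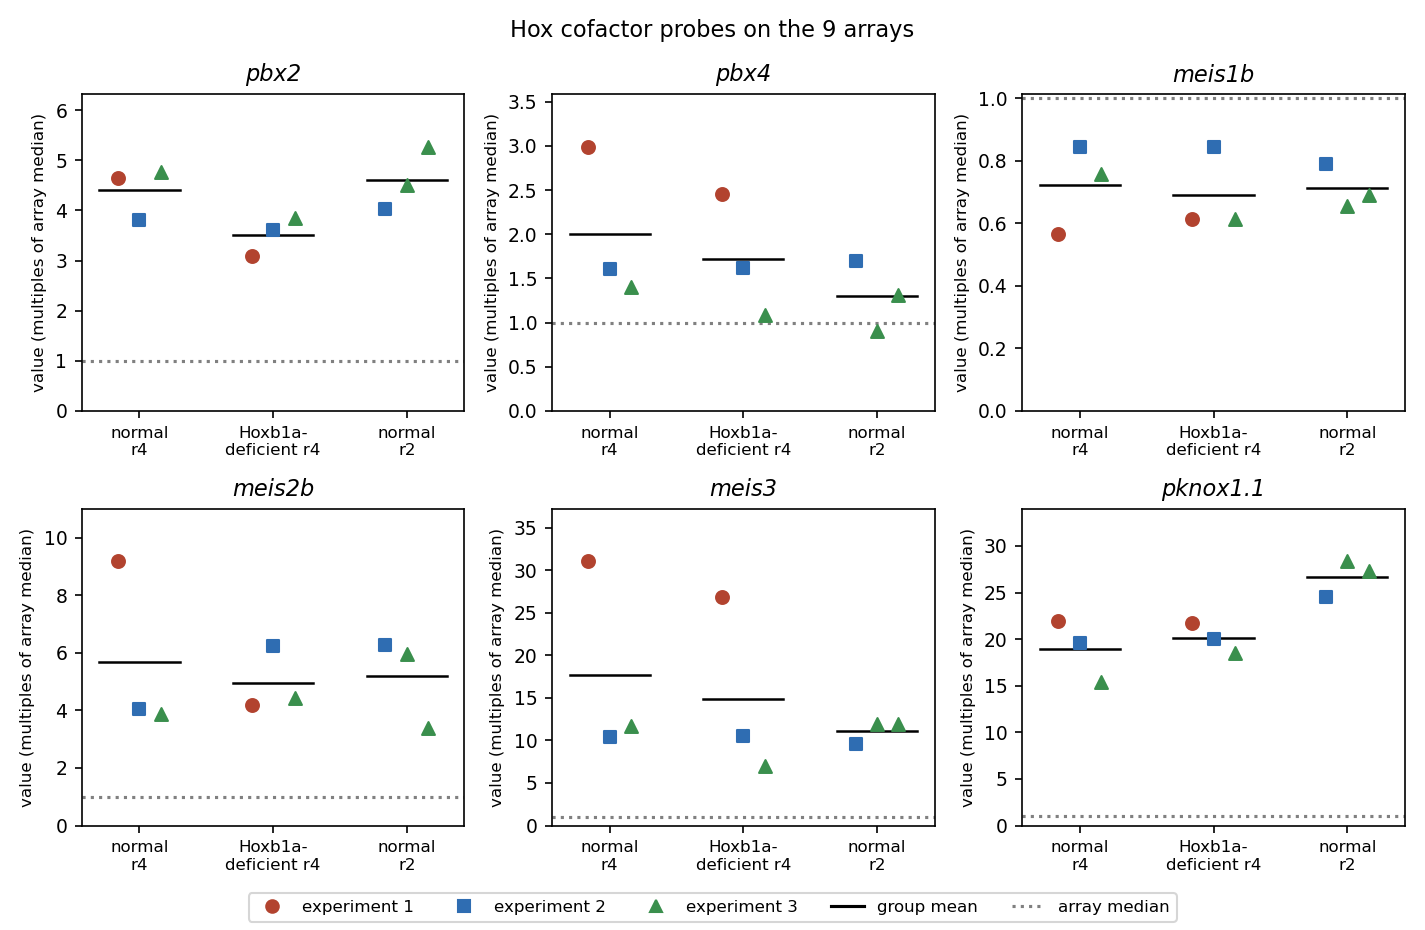
Values of the 6 cofactor probes (vertical axes, multiples of the array median, linear and starting at 0, with a different scale in each panel) on the arrays of normal r4, Hoxb1a-deficient r4 and normal r2. Points are arrays with the experiment given by shape and colour, bars are group means and dotted lines the array median; pknox1.1 lay at 24.5 to 28.3 in r2 and 15.4 to 21.9 in r4, and meis3 reached 26.9 and 31.0 in experiment 1.

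The comparison of Hoxb1a-deficient with normal r4 asks whether the cofactor transcripts depend on Hoxb1a. None of the 6 passed limma's test at an adjusted p under 0.05 (lowest adjusted p = 1.00), nor did any of the 16227 probes (0%), of which 82 (0.505%) had an unadjusted p under 0.05 against 0 of the 6 cofactors. With a replicate block for the experiment, which takes off the differences between experiments, 0 of the 6 and 0.0123% of all probes passed. The median log2 fold change of the 6 genes was -0.16, beside -0.01 for all probes.

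The pbx2 probe measured 3.51 ± 0.388 in Hoxb1a-deficient r4 and 4.41 ± 0.520 in normal r4 (SD, n = 3). The difference was -0.33 ± 0.21 on the log2 scale (SE, 95% interval -0.80 to 0.14, adjusted p = 1.00). It was lower within each experiment, by log2 differences of -0.59, -0.08 and -0.31 in experiments 1, 2 and 3, which was true of 1 of the 6 cofactors and of 12.5% of all probes. In the blocked fit the interval was -0.63 to -0.03 (unadjusted p = 0.0366, adjusted p = 0.853), and 5.74% of all probes reached an unadjusted p under 0.05 there. The pbx2 difference thus did not pass after adjustment.

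For meis3 the mean was 14.8 ± 10.6 in Hoxb1a-deficient r4 and 17.7 ± 11.6 in normal r4 (SD, n = 3), and the log2 differences were -0.21, 0.03 and -0.73 in experiments 1, 2 and 3. The blocked fit gave -0.30 ± 0.17 (SE, adjusted p = 0.890). For pbx4 they were -0.29, 0.01 and -0.36, with a blocked log2 fold change of -0.21 ± 0.16 (adjusted p = 0.917). The meis2b differences had opposite signs, -1.13 in experiment 1 and 0.63 and 0.18 in experiments 2 and 3. Its log2 fold change of -0.11 turned to 0.41 with the block and experiment 1 left out (adjusted p = 0.913). For pknox1.1 the differences were -0.01, 0.03 and 0.27, and the log2 fold change was 0.10 ± 0.21 (SE, adjusted p = 1.00).

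The blocked 95% intervals, not adjusted for the number of probes, give the range of change that the values allow for each gene. They do not give the size of change that the adjusted test could miss. The intervals ran from 0.645- to 0.982-fold for pbx2, 0.667- to 1.12-fold for pbx4, 0.617- to 1.06-fold for meis3 and 0.866- to 1.32-fold for pknox1.1. For meis2b the interval was wide, from 0.568- to 1.52-fold. The test's failure to call a cofactor does not show that its level was equal in the 2 tissues.

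The r2 arrays, whose hoxb1a probe lay below the array median, were set against normal r4. The pknox1.1 probe measured 26.7 ± 1.98 in r2 and 19.0 ± 3.32 in r4 (SD, n = 3), 1.42-fold higher or 0.51 ± 0.21 on the log2 scale (SE, 95% interval 0.04 to 0.98). It did not pass limma's test (unadjusted p = 0.0368, adjusted p = 0.959), and 4.11% of all probes had an unadjusted p under 0.05, as did 1 of the 6 cofactors. Within experiments the log2 difference was 0.32 in experiment 2, and 0.88 for sample 3a and 0.83 for sample 3b in experiment 3. For all probes, which include those below the array median, the quartiles of the differences were -0.12 and 0.15 in experiment 2. In experiment 3, with 3a and 3b averaged, they were -0.13 and 0.19, beside 0.85 for pknox1.1.

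With the experiment as a fixed replicate block the pknox1.1 difference was 0.60 ± 0.14 (SE, 95% interval 0.28 to 0.93), with an unadjusted p of 0.00228 and an adjusted p of 0.0872, and 11% of all probes had an unadjusted p under 0.05 there. With the experiment as a random block it passed, at 0.59 ± 0.14 (adjusted p = 0.0484), a fit in which 2.21% of all probes passed. Like the fixed block, this fit counted 3a and 3b as separate replicates. The pknox1.1 difference was positive under all 19 alternatives, from 0.36 without normal r4 replicate 3 to 0.63 with experiment 1 left out and a block. Its adjusted p lay above 0.05 in 18 of them. The direction was the same in each, and the call depended on how experiments were treated.

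Separate groups were reached by 1 of the 6 cofactors, pknox1.1, and by 3.71% of all probes with r2 higher and 5.05% with r2 lower. No cofactor passed the test (0.579% of all probes did, and 1.70% with the fixed block). The r2 slices differed from r4 in other tissue as well. Otic markers had a summed level of 10.2 to 11.5 in r2, 49.4 to 146 in normal r4 and 52.5 to 111 in Hoxb1a-deficient r4, and 6 of the 8 measured (dlx3b, dlx4b, eya1, six4b, otop1 and gata3) fell in r2. Of 8 midbrain, isthmus and rhombomere 1 markers otx2b and fgf8a rose in r2, and en2a rose in the blocked fit (adjusted p = 0.0314). Their summed levels were 125 to 153 in r2, 132 to 151 in normal r4 and 126 to 161 in Hoxb1a-deficient r4, of which gbx1 alone gave 75.7 to 131 over the 9 arrays. The gbx1 probe stood at the highest value of the normal r4 array of experiment 3, so its level and the sum there were capped. Of 9 neural crest markers gch2 rose in r2, with means of 3.80 in r2 and 0.739 in normal r4. The summed levels of the 9 were 23.3 to 35.5 in r2, 18.8 to 24.5 in normal r4 and 15.7 to 18.8 in Hoxb1a-deficient r4. Of these sums dlx2a, which did not pass, gave 4.75 to 16.2 over the 9 arrays. Of 6 epidermal markers epcam fell. The summed levels of the 6 were 23.4 to 52.4 in r2, 48.9 to 129 in normal r4 and 70.1 to 141 in Hoxb1a-deficient r4. The largest part of these sums came from cldni, which did not pass. Its means were 35.2 in r2, 66.9 in normal r4 and 80.2 in Hoxb1a-deficient r4. On the normal r4 array of experiment 3 cldni stood at the highest value of the array, so its level there could not be read. The part of these tissues in the pknox1.1 difference was not tested, and in bulk slices fewer cells of a type and less RNA per cell cannot be told apart.

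The other cofactors showed no such separation between r2 and r4. The meis3 mean was 11.1 ± 1.34 in r2 and 17.7 ± 11.6 in normal r4, or -0.49 ± 0.51 on the log2 scale (SE, adjusted p = 0.959). This rested on experiment 1, which held no r2 sample: within experiments 2 and 3 the differences were -0.11 and 0.03, and the blocked value was 0.04 (95% interval -0.38 to 0.46). For pbx4 the difference was -0.58 ± 0.38 over all arrays but -0.19 ± 0.18 in the blocked fit and 0.08 and -0.37 within experiments 2 and 3. The last of these averages -0.64 for sample 3a and -0.10 for sample 3b. For pbx2 the log2 fold change was 0.06 ± 0.21, with 0.08 and 0.03 within experiments. The meis2b differences were 0.64 in experiment 2 and, for samples 3a and 3b, 0.62 and -0.20, so that the r2 samples of 1 experiment disagreed by -0.82. The median absolute difference between those samples over all probes was 0.15.

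Hoxb1a-deficient r4 was also set against normal r2. The order of the pknox1.1 levels was normal r4 (19.0), Hoxb1a-deficient r4 (20.1 ± 1.64) and r2 (26.7). The step between the r4 tissues was within their spread. The log2 difference of Hoxb1a-deficient r4 from r2 was -0.41 ± 0.21 (SE, limma adjusted p = 0.996), or -0.51 ± 0.14 with the replicate block (unadjusted p = 0.00632, adjusted p = 0.126), and -0.29 and -0.59 within experiments 2 and 3. The groups also did not overlap for pbx2, at 3.08 to 3.84 in Hoxb1a-deficient r4 and 4.03 to 5.27 in r2 (-0.39 ± 0.21, adjusted p = 0.996; blocked -0.32, adjusted p = 0.331). Separate groups with Hoxb1a-deficient r4 lower were found for 6.43% of all probes, and 0 of the 6 cofactors passed the test (0.555% of all probes did, and 2.21% with the block). At an unadjusted p under 0.05 there were 0 cofactors (4.74% of all probes), and with the block 1 of 6, pknox1.1 (15.2% of all probes). This comparison shares the r2 arrays with the r2 comparison above and the Hoxb1a-deficient arrays with the morpholino comparison, so it is no separate support for either. For meis3 the blocked difference was -0.34 (95% interval -0.76 to 0.08), of opposite sign to the 0.18 over all arrays.

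**Figure D2:**
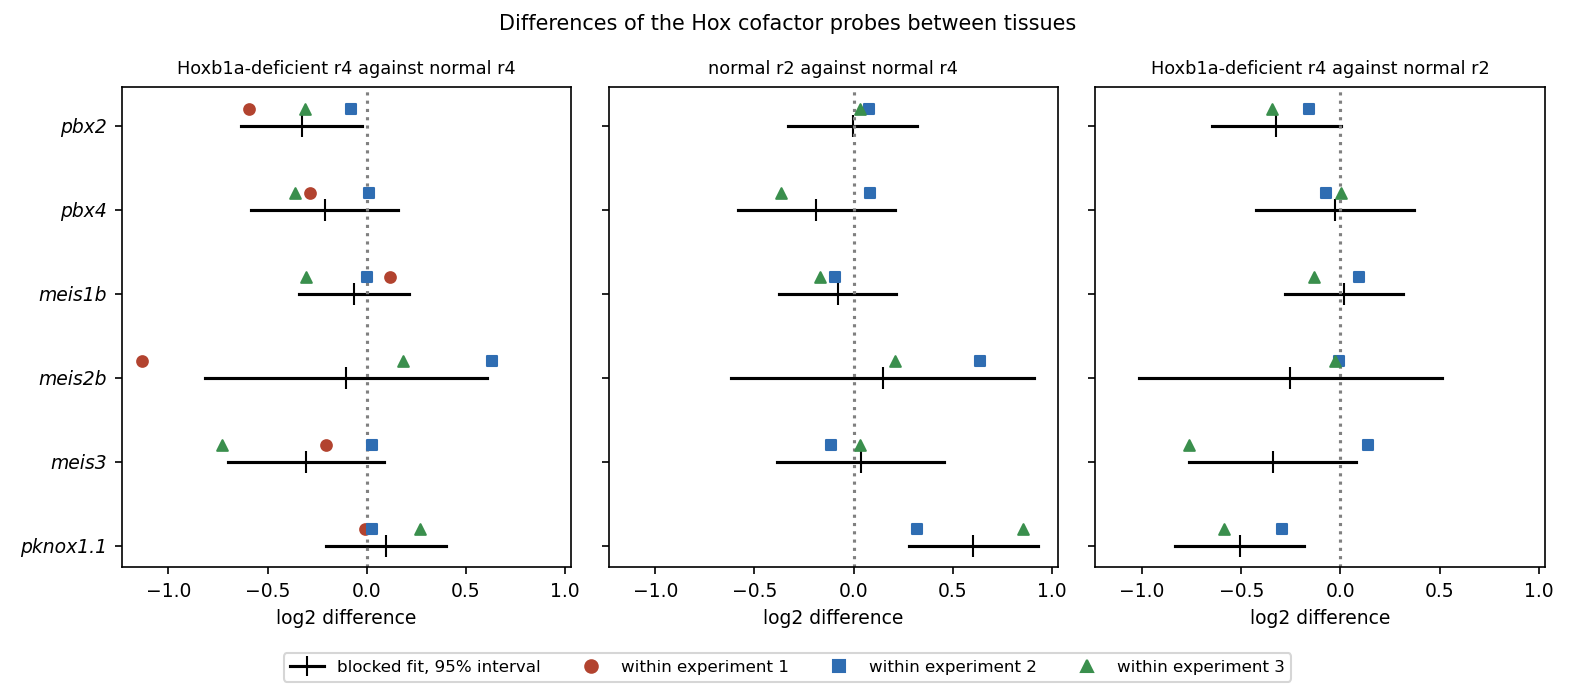
Log2 differences (horizontal axes) of the 6 cofactor probes in the 3 comparisons. Shapes are differences within an experiment (samples 3a and 3b averaged), and the bars are the estimate and 95% interval of the fit with the experiment as a block; for pknox1.1 the r2 interval of 0.28 to 0.93 lies to the right of 0, while the meis2b differences between the r4 tissues ran from -1.13 to 0.63.

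How the cofactors varied between experiments was described with the additive fit of tissue and experiment. The meis3 level was 2.97-fold higher in experiment 1 than in experiment 2, and pbx4 1.62-fold higher. For the brighter probes of the array, those with a mean above the median, the median was 1.53-fold. By contrast pbx2 and pknox1.1 differed by 1.03- and 1.17-fold between these experiments. The rank of a probe within an array does not change with the scale of that array: meis3 lay at the 82.3rd to 90.4th percentile of the probes, pknox1.1 at the 87.3rd to 92.6th, pbx2 at the 66.5th to 77.3rd and pbx4 at the 46.7th to 65.2nd. For meis3 both arrays of experiment 1 had the highest ranks, 90.3 in normal r4 and 90.4 in Hoxb1a-deficient r4, against 82.3 to 86.1 elsewhere. The pknox1.1 ranks were 91.4 to 92.6 in r2 and 87.3 to 91.3 in r4, and still did not overlap.

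The cofactors did not move as 1 group across the arrays. After experiment effects were taken off, Pearson's r between the log2 values of 2 cofactors over 9 arrays ran from -0.53 (meis1b and meis2b) to 0.66 (pbx2 and meis3) over 15 pairs, with 11 above 0. Among pairs without meis1b, whose probe was not separated from background, the lowest was -0.42 (pbx4 and pknox1.1). For plain log2 values the highest was 0.80, for pbx4 and meis3, both of which were high in experiment 1. These are descriptions over arrays that share 3 experiments.

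The named genes with the pattern most like each cofactor were sought among 3255 other genes above the array median (3256 for meis1b), by Pearson's r over the 9 arrays after removal of experiment effects. Nearest to pknox1.1 were pygo2, which encodes a Wnt pathway coactivator (r = 0.997, Spearman's rho = 0.933, and 0.658 for plain values), snx6 (0.991, 0.900 and 0.789) and the zinc finger gene zic5 (0.982, 0.917 and 0.863). Nearest to meis3 were tmem260 (r = 0.984), dhx57 (0.984) and pik3r3b (0.972), and only pik3r3b also followed its plain values closely (0.982, against 0.784 and 0.262). For pbx2 they were mfn2 (0.969), mosmob (0.965) and psmd11b (0.962), for pbx4 pkn1a (0.933), aktip (0.920) and primpol (0.917), and for meis2b anapc15 (0.963), tfdp2 (0.929) and tfb2m (0.925). The meis1b probe came closest to carf (0.968), endog (0.949) and wdr33 (0.924), but its plain values ran against them (-0.42, -0.58 and -0.49). With 9 arrays and 3256 candidates high values of r arise readily, and nothing is read from them about shared control.

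The other TALE genes put the 6 cofactors in context. Of 8 further Pbx, Meis and Pknox genes 7 were measured, and 0 passed the test in any comparison with or without the block. Among them pbx3a, pknox1.2 and pknox2 stayed below the median on all arrays. The pbx3b probe read 0.473 and 0.552 in experiment 1, 0.959 to 1.48 in experiment 2 and 1.49 to 4.42 in experiment 3, where r2 sample 3b was highest. In the additive fit pbx3b stood at 0.474-fold of experiment 2 in experiment 1 and at 1.85-fold in experiment 3. For meis3 these were 2.97- and 1.00-fold, so the 2 genes were opposite in experiment 1 only. The pbx3b mean was 2.77 in r2 and 1.38 in normal r4, with a blocked difference of 0.45 ± 0.27 on the log2 scale (SE, adjusted p = 0.691). The brighter meis1a probe read 8.08 and 9.11 in experiment 1 and 1.31 to 2.28 elsewhere, a 4.40-fold difference between experiments 1 and 2, whereas a second meis1a probe was below the median on all arrays. In the morpholino comparison the blocked log2 fold changes of these 7 genes ran from -0.32 to 0.07, beside a median of -0.01 for all probes. Those of pbx3a, pknox1.2 and pknox2 carry little information, since their probes were not separated from background.

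Of 14 Tgif, Irx and Mkx genes 6 were measured (tgif1, irx1a, irx1b, irx3a, irx5a and irx7), all above the median on some array. In Hoxb1a-deficient against normal r4 they ran from -0.36 to 0.20 on the log2 scale and 0 passed. In r2 all 6 had lower means than in normal r4 over all arrays, from -0.91 to -0.13, yet 3 of 6 were higher in the blocked fit, so their common direction was not seen once experiments were taken off. The irx1a gene turned from -0.13 to 0.67 ± 0.24 (SE, adjusted p = 0.305). The irx1b probe read lower in r2 (15.2) than in normal r4 (31.2), without overlap (adjusted p = 0.959, blocked -0.33, adjusted p = 0.633). The 2 tgif1 probes read 38.2 to 108 and 1.25 to 2.36 over the arrays, and neither passed.

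**Figure D3:**
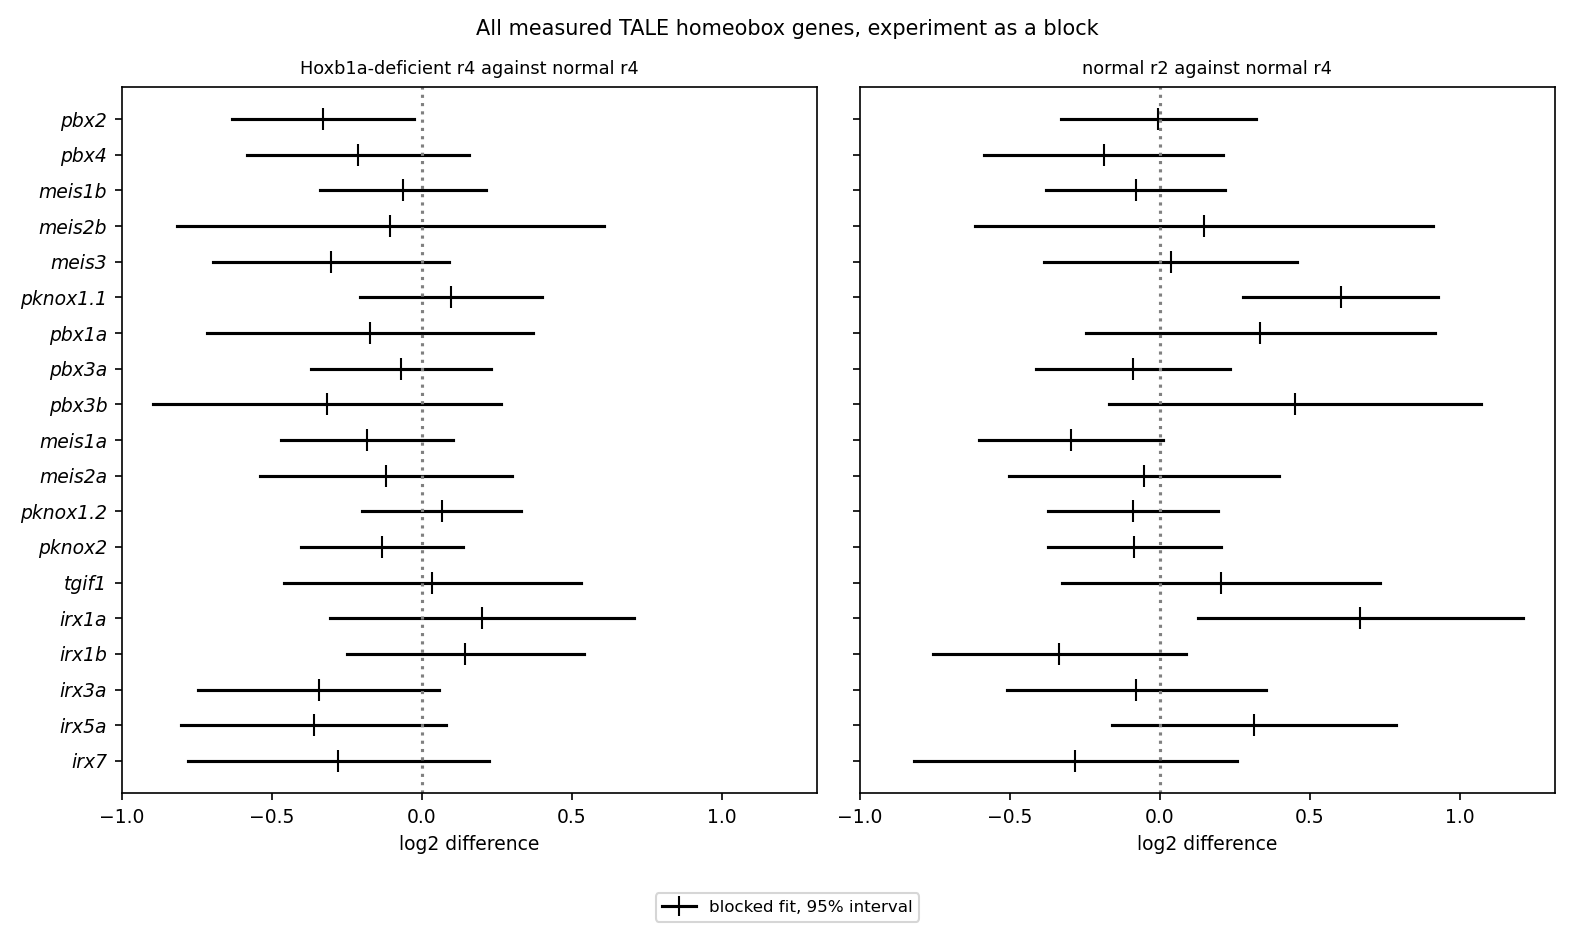
Log2 differences (horizontal axes) of the 19 measured TALE homeobox genes in Hoxb1a-deficient against normal r4 and in normal r2 against normal r4, 1 probe per gene. Ticks and bars are estimates and 95% intervals with the experiment as a block; in r2 the estimates of pknox1.1 (0.60) and irx1a (0.67) lie farthest to the right, and neither passed adjustment over all probes.

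The Hox partners of the cofactors were looked at in the same comparisons. Of 12 measured Hox genes of groups 1 to 4, 6 were below the median on all arrays, and hoxb1a, hoxa3a and the brighter hoxb3a probe fell in r2 (limma adjusted p = 0.0285, 0.00262 and 0.0412). In r2 these probes lay below the array median (hoxa3a at 0.510 to 0.668 and hoxb3a at 0.620 to 0.752), so no fold is given. In the normal r4 slices hoxa3a read 2.67 to 5.28 and hoxb3a 6.76 to 34.9. A slice held tissue around the segment. Which segments gave the levels of these genes and of the hindbrain genes below was not tested. In Hoxb1a-deficient against normal r4 0 of the 12 passed. Within each experiment hoxa2b was lower, by log2 differences of -0.19, -0.58 and -0.94, which was true of 12.5% of all probes. This also held for hoxa4a and hoxd4a, whose probes lay below the median on 8 and 9 arrays. Of 13 measured hindbrain genes known to need Pbx, Meis or Hox group 1 function in zebrafish or mouse, 5 fell in r2 and 1 rose: hoxb1a, hoxa3a, hoxb3a, egr2b and gata3 fell and fgf8a rose. That list shares 3 of these with the Hox list. Its gata3 is also an otic marker, and its fgf8a is also a midbrain, isthmus and rhombomere 1 marker. With the fixed block prickle1b fell in r2 as well. In Hoxb1a-deficient r4 0 of the 13 passed. Lower within each experiment, besides hoxa2b, were the brighter epha4a probe (-0.18, -0.29 and -0.96) and prickle1b (-1.15, -0.65 and -1.18). The medians of the Hox list were -0.24 in r2 and -0.07 in Hoxb1a-deficient r4, and those of the hindbrain list -1.29 and -0.16. Those of all probes were 0.08 and -0.01. With the fixed block the r2 medians were -0.19 (Hox list), -0.89 (hindbrain list) and 0.04 (all probes).

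Retinoic acid sets the level of several Hox and Meis genes in vertebrate embryos. Of 13 measured genes of its synthesis, breakdown and receptors 7 stayed below the median on all arrays, and 1 passed: the receptor gene raraa fell from 6.27 in normal r4 to 2.34 in r2 (log2 fold change -1.40 ± 0.24, SE, limma adjusted p = 0.0285), with 4.36 in Hoxb1a-deficient r4 (-0.50, adjusted p = 1.00). The enzymes and repressors that meet Pbx and Meis at Hox-regulated promoters did not pass in either comparison (0 of 7 measured). Among them crebbpb, which encodes a histone acetyltransferase of the CBP family, had means of 86.0 (normal r4), 75.0 (Hoxb1a-deficient r4) and 81.7 (r2). The znf703 probe, for a repressor of the Nlz family, read 33.9, 28.6 and 18.3 (r2 against r4 -0.78, adjusted p = 0.959, blocked -0.33). Of the 7, hdac1 stood at the highest value of its array on every array of experiments 1 and 3, so its differences there could not be read. The znf503 probe lay below the median on 8 arrays.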

How the data were processed

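The data were 9 one-colour arrays in 3 groups of 3, mapped from the sample titles. One Hoxb1a-deficient sample (replicate 3) has a tissue label without that word, and its title and protocol carry it. Per the labels' protocols, RNA was amplified and labelled with biotin. The authors deposited a table of 16399 rows on a linear scale, taken here as a ratio of intensity to a constant per array, since the medians are 1.00 to 1.01 and no value is at or below 0. The scanning, background correction and normalization steps were not given in the sources used here. On each array 9 to 243 rows shared its highest value, which no cofactor probe reached. No detection flags were used, and the number of arrays limits the precision. Rows were named through the platform annotation, updated through Entrez IDs for 6010 rows: 6079 had 1 symbol, 74 several and 10246 none. Whether a probe also binds a close paralogue was not tested, and probe and protein sequences were not used here. Control spots (172, all of actb2) were not tested.

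The test was limma 3.58.1 (R 4.3.3; group means over 9 arrays, eBayes, two-sided, log2 of the values, no pseudocount) with Benjamini-Hochberg adjustment over 16227 probes and a threshold of 0.05. The fit was tested on simulated data. A list gene with several probes stood by its brightest. Samples are paired by experiment, because the series' design text names the replicate numbers as experiments. Normal and Hoxb1a-deficient r4 arrays of 1 experiment deviated together from their group means (r = 0.892, 0.730 and 0.683 across probes). Between these tissues across experiments, r was 0.504 and 0.352 for experiments 2 and 3. It was -0.781 to -0.678 where 1 array was from experiment 1. Experiment 1 is part of each r4 mean, so a shared deviation of experiments 2 and 3 is partly built in. For r2 arrays with r4 arrays of their experiment r was -0.119 to 0.531. The r4 means include experiment 1 and the r2 mean does not, so these values cannot show whether r2 was paired less closely. Alternatives were a fixed or random experiment block, log2(value + 1), quantile normalization, a filter on dim probes, probe means, another eBayes prior, r2 samples averaged, and each array or experiment 1 left out. Genes named were the 6 cofactors, hoxb1a, the list genes past the test or measured in the TALE and Hox lists, and the 3 genes most like each cofactor. Named beyond that rule, after their values were seen, were crebbpb, znf703, hdac1, znf503, en2a, gbx1, cldni, dlx2a, epha4a and prickle1b. The members and lists were chosen with earlier results of these data known.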

Additional observations from a re-analysis of the deposited data

How the results depend on the processing

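Of the 6 cofactors 0 passed the test in Hoxb1a-deficient against normal r4 and against r2 under all 19 alternatives, and in r2 against normal r4 under 18, with 1 (pknox1.1, adjusted p = 0.0484) with the experiment as a random replicate block. Those that turned in sign were uncalled differences, and the cause was not tested. With the filter on dim probes meis1b was not tested.

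In r2 against normal r4 the fixed replicate block turned pbx2 to -0.0046, meis2b to 0.15 and meis3 to 0.037, and changed no call. With quantile normalization and the block pbx2 was -0.068 and meis2b 0.096. For meis2b other values were 0.13 (random block), 0.12 (quantile), 0.020 (3a and 3b averaged) and 0.40 (experiment 1 left out, block), and for meis3 0.012 in the last. meis1b was 0.033 with 3a and 3b averaged. In Hoxb1a-deficient r4 against r2 the fixed block gave pbx4 -0.026, meis1b 0.018 and meis3 -0.34, and the random block meis1b 0.0077 and meis3 -0.28. Quantile normalization gave meis1b 0.077, and with the block pbx4 -0.031, meis1b 0.047 and meis3 -0.15. With experiment 1 left out and a block pbx4 was -0.0069, meis2b 0.0041 and meis3 -0.37. In Hoxb1a-deficient against normal r4 the last setting gave meis2b 0.41.

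With each array left out in turn, log2 fold changes in Hoxb1a-deficient against normal r4 ran from -0.51 to 0.12 for pbx4, -0.23 to 0.060 for meis1b, -0.32 to 0.30 for meis2b, -0.85 to 0.19 for meis3 and -0.048 to 0.21 for pknox1.1. In r2 against normal r4 they ran from -0.043 to 0.15 for pbx2, -0.17 to 0.12 for meis1b, -0.28 to 0.34 for meis2b and -0.78 to 0.012 for meis3. In Hoxb1a-deficient r4 against r2 they ran from -0.21 to 0.022 for meis1b, -0.33 to 0.12 for meis2b and -0.37 to 0.60 for meis3. Without detection flags, signal over background limits meis1b on all 9 arrays and pbx4 on 1.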
